A study of Mus musculus with 2 samples.

Results

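The genes described here are C1qa, C1qb, C1qc, Fcer1g, Tyrobp, Csf1r, Cd68, Cd14 and Itgam, which are known for their expression in macrophages and other myeloid cells. They were taken by gene symbol from the platform's probe annotation. All 9 were found, each with 1 probe, among 16390 named genes on each of 2 arrays. Macrophages of the gut lie in the lamina propria beneath the epithelium, and intraepithelial lymphocytes lie within it.

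The mice carried the alleles Atoh1-crePGR, Lgr5-EGFP-IRES-creERT2 and Rosa26-tdTomato, and all 3 populations came from mice of this genotype. RU486, which activates the Cre fused to the progesterone receptor, was injected on 5 consecutive days. Cells of the small intestinal epithelium were sorted 20 days after recombination. Cells with EGFP and no tdTomato (EGFP only) are taken as Lgr5 cells of other than Atoh1 origin. Cells with both proteins (double positive) are taken as Lgr5 cells of Atoh1 origin. Those with tdTomato and no EGFP (tdTomato only) are taken as Lgr5-negative cells of that origin. The sort reads fluorescence only, and how fully the reporters mark these cells was not tested. Cells of 4 mice were pooled before the sort, and each population is 1 biological replicate. Cy5 labelled the EGFP-only RNA of both arrays, and Cy3 the double-positive RNA of the first array and the tdTomato-only RNA of the second. No source used here says whether both arrays took the same EGFP-only extract. Sex, strain and age, and whether leukocytes were gated out, are not given in the sources used here.

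C1q is the recognition subunit of the classical complement pathway. It is assembled from the A, B and C chains, each encoded by its own gene, and tissue macrophages are a main source of it. Fcer1g and Tyrobp encode short membrane adaptors that pair with activating receptors and signal through an immunoreceptor tyrosine-based activation motif (ITAM); myeloid cells use both, and so do natural killer cells and some intraepithelial T cells. Csf1r encodes the receptor for the growth factor CSF1, on which most macrophages depend. Cd14 encodes the lipopolysaccharide co-receptor of Toll-like receptor 4, Itgam the integrin chain CD11b, and Cd68 a glycoprotein of macrophage lysosomes.

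Each comparison rests on 1 array and no dyes were swapped, so no value has a replicate error, no p-value is given, and dye, array and population cannot be told apart. Genes were therefore counted by size, at a log2 ratio of at least 1 (2-fold higher) or at most -1 (2-fold lower). The log2 ratios are those after normexp background correction and loess normalization unless called the authors' deposited ratios. A spot counted as above background when its intensity, in scanner units, exceeded the mean plus 2 SD of 2736 blank spots. These limits were 74.12 and 75.68 for EGFP only on the first and second array, 82.18 for double positive and 85.39 for tdTomato only. Raw intensities of Cy5 and Cy3 are on unmatched scales. Their order across the dyes is by itself no order of populations. Of the probes, 67.0% to 77.1% passed the limit in the 4 channels. The EGFP-only population was measured on both arrays, and the log2 differences between its readings had an SD of 0.083 across 15640 probes. For the 9 genes the EGFP-only difference was at most 0.10. That is technical spread only and does not stand for differences between mice. Of 12 measured epithelial marker genes, 11 were above background in the EGFP-only population on both arrays and all 12 in the other populations, and the keratin gene Krt19 was the exception.

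The promoter sequences of C1qb and C1qc are shown because these genes are neighbours and encode chains of the same protein, and that of Fcer1g because it differed most between the Cy3-labelled populations. On chromosome 4 the genes lie in the order C1qb, C1qc, C1qa with no other protein-coding gene between them, in RefSeq's annotation of GRCm38.p6. RefSeq's promoter table held an entry for 5 of the 9 genes. Each sequence gives the 250 bases before the gene's start, 5′ to 3′ along the gene, all on the minus strand of GRCm38.p6. Capitals mark the letters GAGGAA or their reverse complement TTCCTC, the core recognised by the myeloid transcription factor PU.1.
C1qb, chr4:136886201-136886450: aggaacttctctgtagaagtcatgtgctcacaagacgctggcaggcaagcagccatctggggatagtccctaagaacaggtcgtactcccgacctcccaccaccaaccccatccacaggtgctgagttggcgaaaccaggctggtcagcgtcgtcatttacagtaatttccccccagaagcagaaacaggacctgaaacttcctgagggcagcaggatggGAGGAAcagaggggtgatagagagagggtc
C1qc, chr4:136892915-136893164: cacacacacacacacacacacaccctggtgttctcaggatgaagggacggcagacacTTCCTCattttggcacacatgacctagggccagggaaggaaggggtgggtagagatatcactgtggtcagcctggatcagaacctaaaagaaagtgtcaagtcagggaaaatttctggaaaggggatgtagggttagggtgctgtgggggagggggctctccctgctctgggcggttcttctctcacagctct
Fcer1g, chr1:171234350-171234599: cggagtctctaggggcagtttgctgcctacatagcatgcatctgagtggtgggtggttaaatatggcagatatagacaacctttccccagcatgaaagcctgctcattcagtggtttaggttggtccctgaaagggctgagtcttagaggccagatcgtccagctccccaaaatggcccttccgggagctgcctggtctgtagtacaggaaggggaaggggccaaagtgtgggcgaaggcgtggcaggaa

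The letters occurred once in C1qb, starting 30 bases before the gene's start, and once in C1qc on the opposite strand, 193 bases before it. This window of Fcer1g held no match to GAGGAA or TTCCTC, though it does hold the shorter GGAA. Cd68 had 1 match and Itgam 2. Of 32851 promoter windows of the same length, 23.3% held at least 1 match on either strand. A match is a run of letters here and no measured binding site.

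All 9 genes passed the background limit in double-positive cells, as did 80.3% of all named genes. In the tdTomato-only channel 8 were, against 75.8% of all genes, with Itgam the exception. In the EGFP-only channel 8 passed on the first array and 7 on the other, against 72.6% and 70.7% of all genes. C1qa was not above background in the EGFP-only channel of either array, and C1qc only on the first.

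**Figure D1:**
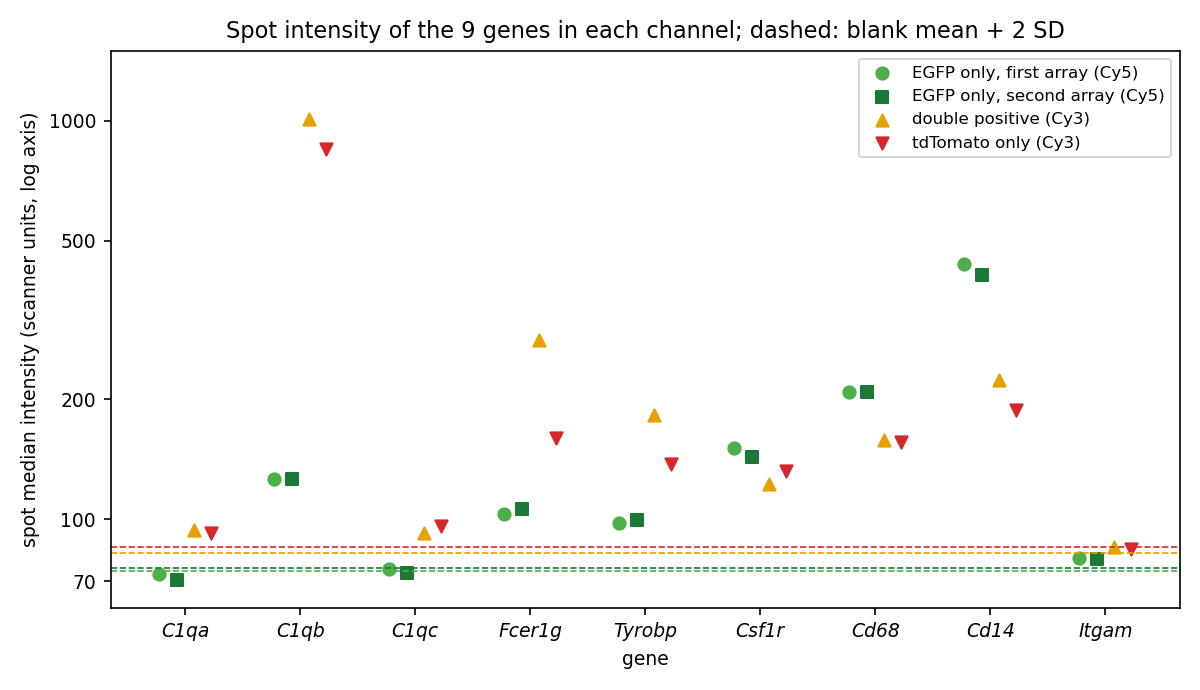
Spot median intensity (log axis, scanner units) of the 9 genes in the 4 channels, 1 point per channel, with dashed lines at the mean plus 2 SD of the blank spots of each channel in the same colour. C1qb stands at 1009 in the double-positive and 852.1 in the tdTomato-only channel and near 126 in both EGFP-only channels, while C1qa, C1qc and Itgam lie close to the dashed lines.

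C1qb, the gene of the B chain, had the largest ratio of the 9 genes in both comparisons with EGFP only. Its single probe's sequence was not analysed here, so whether the probe reads C1qb alone was not tested. Its spot intensity was 126.5 and 126.0 in the EGFP-only channel of the first and second array, 1009 in the double-positive channel and 852.1 in the tdTomato-only channel. Both Cy3-labelled populations were far above the EGFP-only population, whose 2 readings nearly coincided. The log2 ratio was 3.62 in double-positive cells, 12.3-fold higher than EGFP only. In tdTomato-only cells it was 3.30, a 9.82-fold higher level. By rank C1qb was number 43 from the top among 11774 genes in the first comparison and number 55 among 11381 in the second. The authors' deposited ratios were 4.48 and 4.05. Over 8 processing settings the log2 ratio ranged from 3.18 to 4.58 in double-positive and from 2.89 to 4.24 in tdTomato-only cells.

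The A and C chain genes stood near the background limit. C1qa read 72.89 and 70.62 in the EGFP-only channels, 93.87 in double-positive and 92.22 in tdTomato-only cells. Both Cy3 readings passed their limits and both Cy5 readings missed theirs, so that only a bound can be given. The bound for C1qa was 1.19-fold higher in double-positive and 1.15-fold higher in tdTomato-only cells than in EGFP-only cells. Such bounds were computed from loess- and Aquantile-normalized channels. They set the Cy3 level against the gene's own EGFP-only level or the channel's dimmest probe that passed the limit, whichever was higher. Dye bias can shift them, and they are no strict minimum. For Serping1 in double-positive cells the same calculation gave 0.98. Every fold given below as at least a value is a bound of this kind, and one near 1 fixes no direction.

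C1qc read 74.88 and 73.54 in the EGFP-only channels, 92.36 in double-positive and 96.25 in tdTomato-only cells. Its first EGFP-only reading passed the limit by less than 1 unit. The log2 ratio was 0.18 in double-positive cells, and the bound in tdTomato-only cells was at least 1.18-fold higher. Above background in the Cy3 channel alone were also 8.44% of all genes in the first comparison and 6.35% in the second, and in the EGFP-only channel alone 0.738% in the first.

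The ratio of a dim gene depends on how the background is handled. In the authors' deposited ratios, which have the blank level subtracted, C1qa stood at 2.27 in double-positive cells and C1qc at 1.62, and C1qc at 2.09 in tdTomato-only cells. A deposited value for C1qa in tdTomato-only cells was missing. Moving both channels of C1qc by 2 SD of the blank spots placed its first deposited ratio anywhere from 0.23 to 4.73. The same shift placed C1qb between 4.34 and 4.64, inside the range of C1qc. Whether C1qc differed from C1qb in size was therefore not detectable at this signal. In double-positive cells the lower ends of all 3 chains stayed above 0 in these ratios, with 0.68 for C1qa and 0.23 for C1qc. In tdTomato-only cells that of C1qa was -0.09, so that its direction there is not fixed by this measure despite the bound given above. For C1qa and, on the second array, C1qc the upper end had no limit, since the EGFP-only signal fell to the blank level. The shift was applied only to ratios rebuilt as the deposited ones were made, centred on their median without loess. For C1qa in tdTomato-only cells, which had no deposited value, the rebuilt ratio was 2.91. Where loess followed removal of the blank mean, C1qc in double-positive cells stood at 1.20 instead of 1.62. Whether the lower ends of C1qa and C1qc would stay above 0 after loess was not tested.

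**Figure D2:**
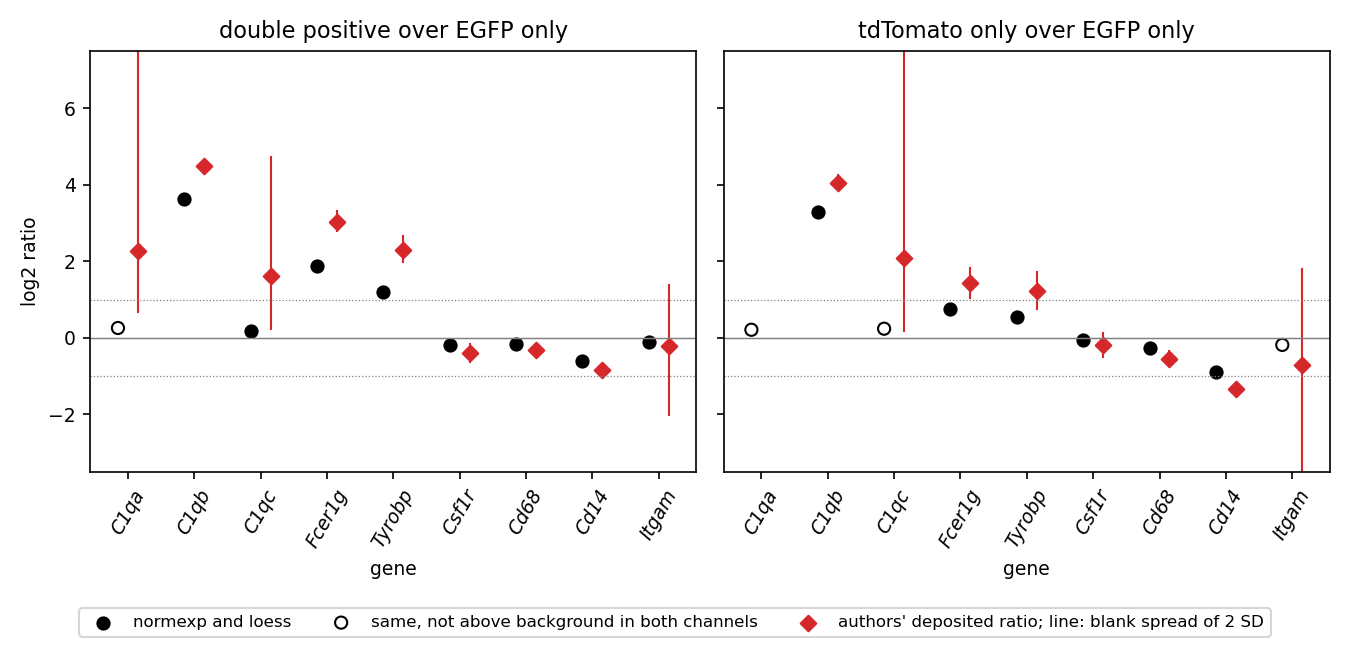
Log2 ratio of the 9 genes on each array against EGFP only (left panel double positive, right panel tdTomato only). Black points are the values after normexp and loess, open where a channel was not above background, and red diamonds the authors' deposited ratios with lines for a shift of 2 SD of the blank spots (lines that reach the edge of the panel have no limit). C1qb has narrow lines around 4.48 and 4.05, whereas the lines of C1qa, C1qc and Itgam are wide.

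The Fc receptor adaptor gene Fcer1g was highest in double-positive cells, lower in tdTomato-only cells and lowest in EGFP-only cells. The EGFP-only readings were 103.3 and 106.1, the double-positive reading 281.3 and the tdTomato-only reading 160.5. Both Cy3 values lay above both EGFP-only values. Fcer1g had a log2 ratio of 1.88 in double-positive cells, 3.68-fold higher than EGFP only. The log2 ratio of 0.76 in tdTomato-only cells, 1.69-fold higher, stayed below 2-fold, but the authors' deposited ratio there was 1.42, against 3.02 in double-positive cells. EGFP-only levels of probes of like brightness differed between the arrays with an SD of 0.052, and those of Fcer1g itself by 0.10. That spread is of 1 dye and 1 population, so it is no error of either ratio.

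Tyrobp, which encodes the adaptor DAP12, had the same order of populations. It read 98.17 and 99.86 in EGFP-only cells, 182.9 in double-positive and 137.7 in tdTomato-only cells. Again the EGFP-only values were the lowest. Its log2 ratio was 1.20 in double-positive cells (2.30-fold higher) and 0.54 in tdTomato-only cells (1.46-fold higher). With median centring in place of loess the first was 0.97, under 2-fold. In the deposited ratios Tyrobp stood at 2.30 and 1.22, past 2-fold on both arrays.

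The other genes did not have higher ratios in the Cy3-labelled populations. Csf1r, the CSF1 receptor gene, read 150.8 and 143.8 in EGFP-only, 122.4 in double-positive and 132.1 in tdTomato-only cells. Its log2 ratios of -0.18 and -0.06 lay near 0. The SD between arrays for EGFP-only probes of like brightness was 0.069, which leaves out differences between dyes and populations. The deposited ratios were -0.40 and -0.19, and a shift of 2 SD of the blanks placed the second between -0.51 and 0.13.

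Cd14, the gene of the lipopolysaccharide co-receptor, was lower in both populations of Atoh1 origin. The EGFP-only readings were 436.3 and 410.3, against 224.1 in double-positive and 188.5 in tdTomato-only cells. EGFP-only cells had the highest values and tdTomato-only cells the lowest. The log2 ratio was -0.60 in double-positive cells, 1.52-fold lower. In tdTomato-only cells it was -0.88, 1.84-fold lower. Neither reached 2-fold, whereas the deposited ratios were -0.85 and -1.33, and median centring placed the first at -1.02. From the bottom, Cd14 was number 450 of 11774 genes and number 227 of 11381.

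Cd68, the gene of the lysosomal glycoprotein macrosialin, read 208.3 and 209.0 in EGFP-only, 158.6 in double-positive and 156.3 in tdTomato-only cells. Its EGFP-only readings were within 1 unit of each other. The log2 ratios were -0.16 and -0.26, and the deposited ones -0.31 and -0.55.

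Itgam, the CD11b gene, read 80.23 and 79.77 in EGFP-only, 85.17 in double-positive and 84.05 in tdTomato-only cells, each within a few units of its limit. The log2 ratio in double-positive cells was -0.11. On the second array Itgam was above background in EGFP-only cells alone, as were 1.23% of all genes, with a bound of 1.12-fold higher there. A shift of 2 SD of the blanks placed its first deposited ratio between -2.02 and 1.37. The second, -0.70, reached up to 1.79 and had no lower limit, so no difference was detectable on either array at this signal.

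In the first comparison 3 of the 8 genes with both channels above background (C1qb, Fcer1g and Tyrobp) were at least 2-fold higher, against 5.10% of all genes, and none was 2-fold lower, against 0.340%. Their median log2 ratio was 0.04 and that of all genes -0.01, with 4 of the 8 above 0, against 48.9% of all genes. In the second, C1qb alone of 6 genes was at least 2-fold higher, against 6.15% of all genes, and none 2-fold lower, against 1.19%. The median was 0.24, against -0.01 for all genes, of which 48.2% lay above 0. The genes that passed the limit are those with signal in both channels, so these medians leave out C1qa, and in the second comparison C1qc and Itgam as well.

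The count was 5 of 9 genes in the deposited ratios of the first comparison (C1qa, C1qb, C1qc, Fcer1g and Tyrobp), where 12.2% of all genes were at least 2-fold higher and 3.50% 2-fold lower. In the deposited ratios of the second it was 4 of 8, against 12.8%. One of those 8, Cd14, was at least 2-fold lower, against 6.92% of all genes. The offset used with normexp shrinks the ratios of dim genes, and no such offset is in the deposited ratios. In tdTomato-only cells 3 genes were at least 2-fold higher when the blank mean was subtracted before loess, against 10.8% of all genes, and 2 with an offset of 10, against 8.86%.

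**Figure D3:**
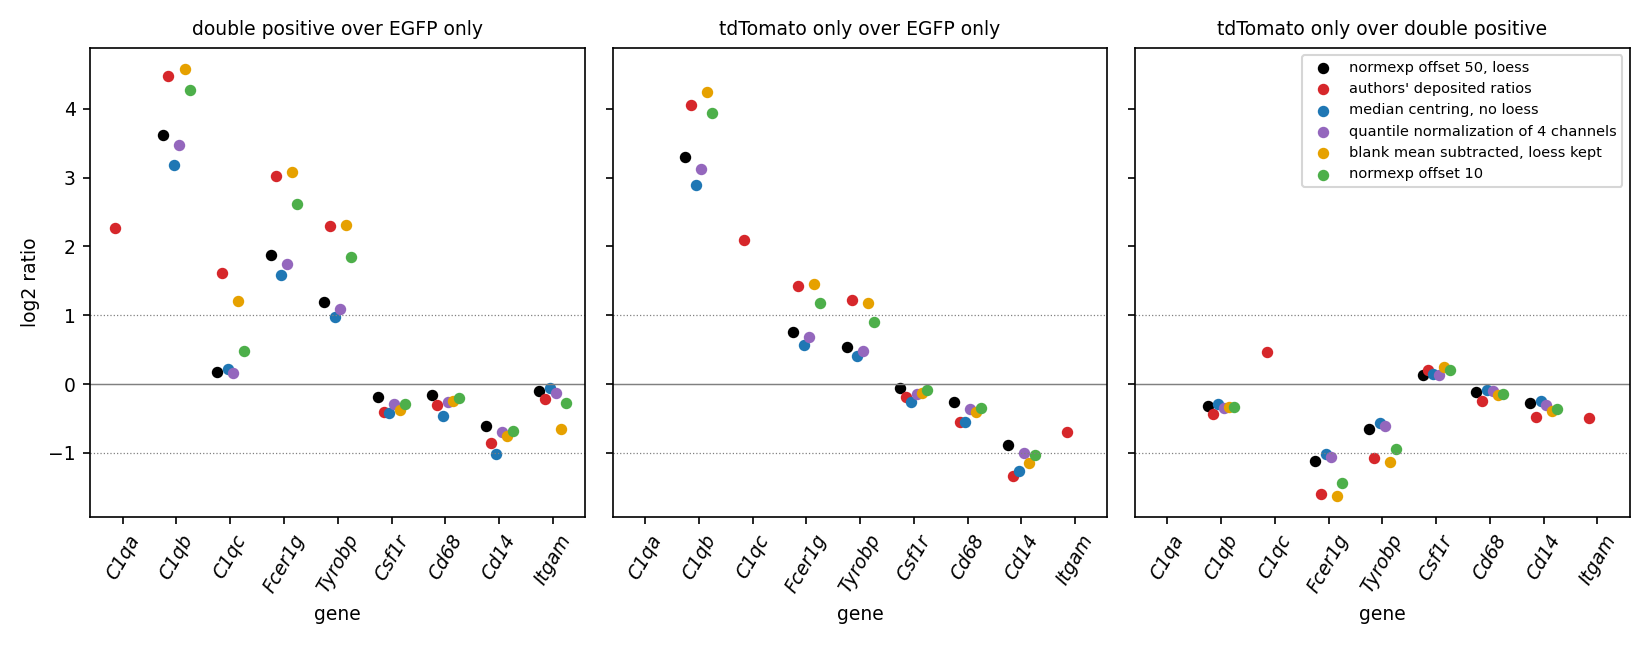
Log2 ratio of each gene (horizontal axis) under 6 processing settings, 1 panel per comparison, with dotted lines at 2-fold. No gene has points on both sides of 0 within a panel; those of Fcer1g lie past 2-fold in double-positive cells (1.58 to 3.07) and on either side of 2-fold in tdTomato-only cells (0.57 to 1.46).

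The third comparison, tdTomato only against double positive, is the difference between the arrays' log2 ratios. The EGFP-only population cancels in it only as far as both arrays read it alike, and array effects stay in the difference. Of 6 genes above background in all 4 channels, Fcer1g alone was at least 2-fold lower in tdTomato-only cells, against 0.274% of all genes. Its log2 difference was -1.12 (2.18-fold lower), number 26 from the bottom of 11311 genes. Tyrobp was next, with -0.66 (1.58-fold lower) and number 141 from the bottom. C1qb had -0.32 (1.25-fold lower), Cd14 -0.28 and Cd68 -0.11. Csf1r was the only one of the 6 above 0, at 0.13, where 45.7% of all genes lay above 0. None was at least 2-fold higher, against 0.813% of all genes. The median of the 6 was -0.30, against -0.02 for all genes. Both adaptor genes thus lay further below 0 than C1qb, which was almost as high in tdTomato-only as in double-positive cells. In the deposited ratios Fcer1g (-1.60) and Tyrobp (-1.08) were both past 2-fold lower, as were 1.76% of all genes. The same 2-gene count came with the blank mean subtracted, against 1.44% of all genes.

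Genes whose pair of log2 ratios lay nearest to each of the 3 genes past 2-fold were found by Euclidean distance over the 2 arrays, among 11318 genes measured on both. For Fcer1g they were Srgn (1.84 and 0.83), Nkg7 (1.75 and 0.73) and Coro1a (1.73 and 0.77). Srgn and Coro1a are on the pan-leukocyte list used below and Nkg7 on the lymphocyte list. For Tyrobp they were Car2 (1.19 and 0.54), Gimap7 (1.19 and 0.48) and Gimap4 (1.21 and 0.48). Nearest to C1qb were Fam71e2 (3.66 and 3.19), Ccdc187 (3.58 and 3.14) and Tmed6 (3.78 and 3.31), and none of these is on a leukocyte list used here. With 2 arrays that share a population, such nearness is a description only.

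**Figure D4:**
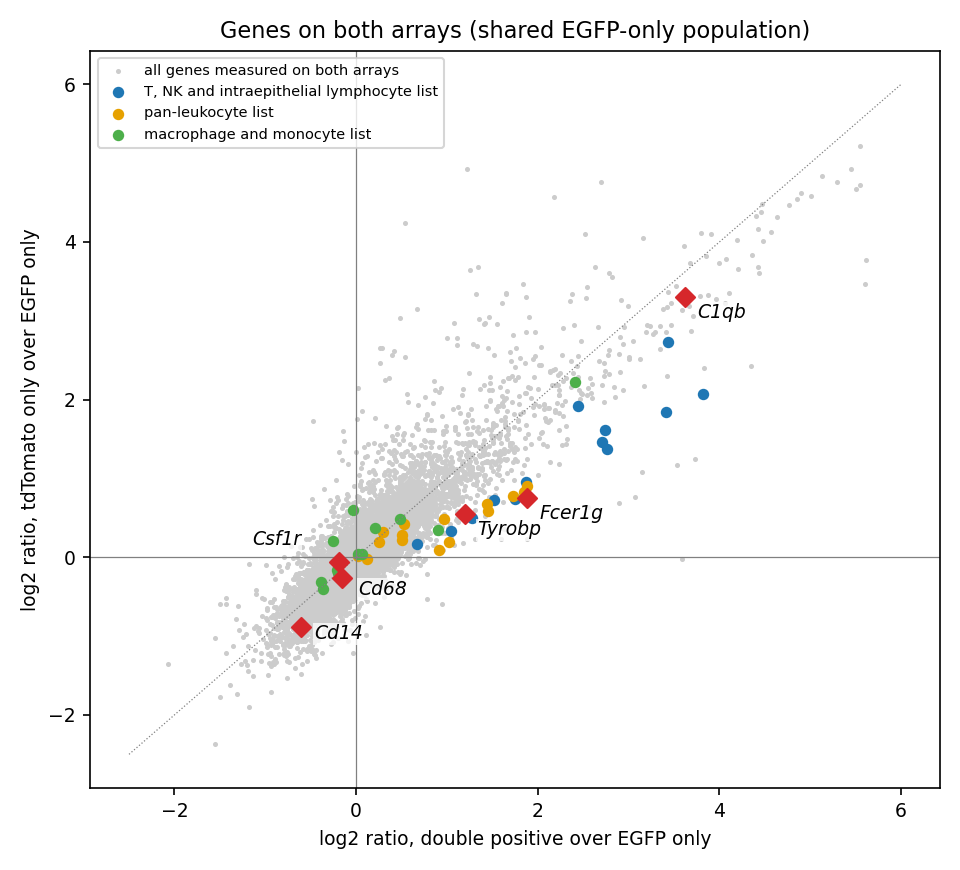
Log2 ratio in double-positive cells (horizontal) against that in tdTomato-only cells (vertical), both over EGFP only. Grey points are all genes measured on both arrays, red diamonds the 6 genes described here that were measured on both, and blue, orange and green points the lymphocyte, pan-leukocyte and macrophage lists. Fcer1g (1.88 and 0.76) and Tyrobp (1.20 and 0.54) lie below the dotted line of equal ratios among blue and orange points, and C1qb (3.62 and 3.30) lies closer to that line.

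Markers of whole cell types were read beside these genes. Of the macrophage and monocyte list, 23 genes had a probe, and 12 were measured in each comparison with EGFP only. Lgmn, a lysosomal protease gene, was the only one past 2-fold, with log2 ratios of 2.41 and 2.22. Past it in the deposited ratios were 3 of 12 in each comparison. Of all genes, 5.10% and 6.15% were at least 2-fold higher, and 12.2% and 12.8% in the deposited ratios. The list medians were -0.01 in double-positive and 0.13 in tdTomato-only cells, in the deposited ratios -0.06 and 0.23, and with median centring, which moved the median of all genes to -0.21, -0.12 and -0.07.

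Defining macrophage genes gave little signal. Not above background in any channel were Mrc1, Cd163, Ms4a7, Cd209a, Timd4, Cybb and Pf4, named for that reason. Each of these calls rests on 1 probe, and whether a silent probe can read its gene was not tested. The probe of the epithelial marker Krt19 also missed the limit in EGFP-only cells. The same holds for genes without signal below, such as Cd3e, Fcgr1, Fcgr4 and Tlr4. A missing signal is therefore no proof that the transcript is absent. Adgre1, which encodes F4/80, passed its limit in the double-positive channel alone (82.22), and the chemokine receptor gene Cx3cr1 in the tdTomato-only channel alone (86.05). Ncf1, an oxidase subunit gene, stood at 0.90 and 0.35, Aif1 at 0.48 and 0.48, and Plac8, which enterocytes also express, at -0.03 and 0.60. Marco was above background in the Cy3 channels alone, at least 1.19-fold and 1.18-fold higher, and Ccr2 likewise with at least 1.05-fold and 1.04-fold. Summed over the list, intensity above the blank mean was 11960 and 12020 in EGFP-only, 6759 in double-positive and 10250 in tdTomato-only cells, on dye scales that are not matched. Plac8 made up most of it, and without Plac8 the sums were 1526 and 1407, 1712 and 1603.

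Of the pan-leukocyte list, genes shared by all leukocytes, 15 were measured on each array. Of these, 6 were at least 2-fold higher in double-positive cells, against 5.10% of all genes, and none in tdTomato-only cells, against 6.15%. The list medians were 0.91 and 0.32. The deposited ratios gave 12 of 17 and 10 of 17, against 12.2% and 12.8% of all genes, with list medians of 2.20 and 1.47. Cd52 stood at 1.89 and 0.91, Srgn and Coro1a as given above, and Cd48 and Cd37 were above background in the Cy3 channels alone (at least 1.96-fold and 1.27-fold, and at least 1.57-fold and 1.25-fold higher). Ptprc, which encodes CD45 and was chosen with its values known, stood at 1.46 and 0.59. The summed intensity above the blank mean was 664.2 and 644.0 in EGFP-only, 1658 in double-positive and 952.0 in tdTomato-only cells.

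Of the T cell, natural killer cell and intraepithelial lymphocyte list, 12 of 14 with a ratio were past 2-fold higher in double-positive cells. In tdTomato-only cells 7 of 13 were. The shares of all genes were 5.10% and 6.15%. The list medians were 2.15 and 1.38. The largest ratios in double-positive cells were those of the granzyme genes Gzma (3.82 and 2.07) and Gzmb (3.43 and 2.73) and of the chemokine gene Ccl5 (3.41 and 1.85). In tdTomato-only cells the receptor gene Cd244a (2.44 and 1.92) came next after Gzmb and Gzma. Thy1 was above background in the Cy3 channels alone, at least 2.08-fold and 1.34-fold higher. Summed intensity above the blank mean was 1666 and 1591 in EGFP-only, 13250 in double-positive and 5839 in tdTomato-only cells. Its defining gene Cd3e was not above background in any channel, and neither was Ncr1. By contrast, Cd3g stood at 2.70 and 1.46 (Cd3e and Cd3g were chosen with their values known). In the third comparison all 13 measured lymphocyte genes and 14 of 15 pan-leukocyte genes lay below 0, with medians of -0.91 and -0.48. Of all genes, 45.7% lay above 0 there, and their median was -0.02. Fcer1g and Tyrobp are also expressed by lymphocytes of these kinds, and the part of such cells in the 2 genes' ratios was not tested. In bulk RNA, fewer cells of a type and less RNA per cell cannot be told apart.

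**Figure D5:**
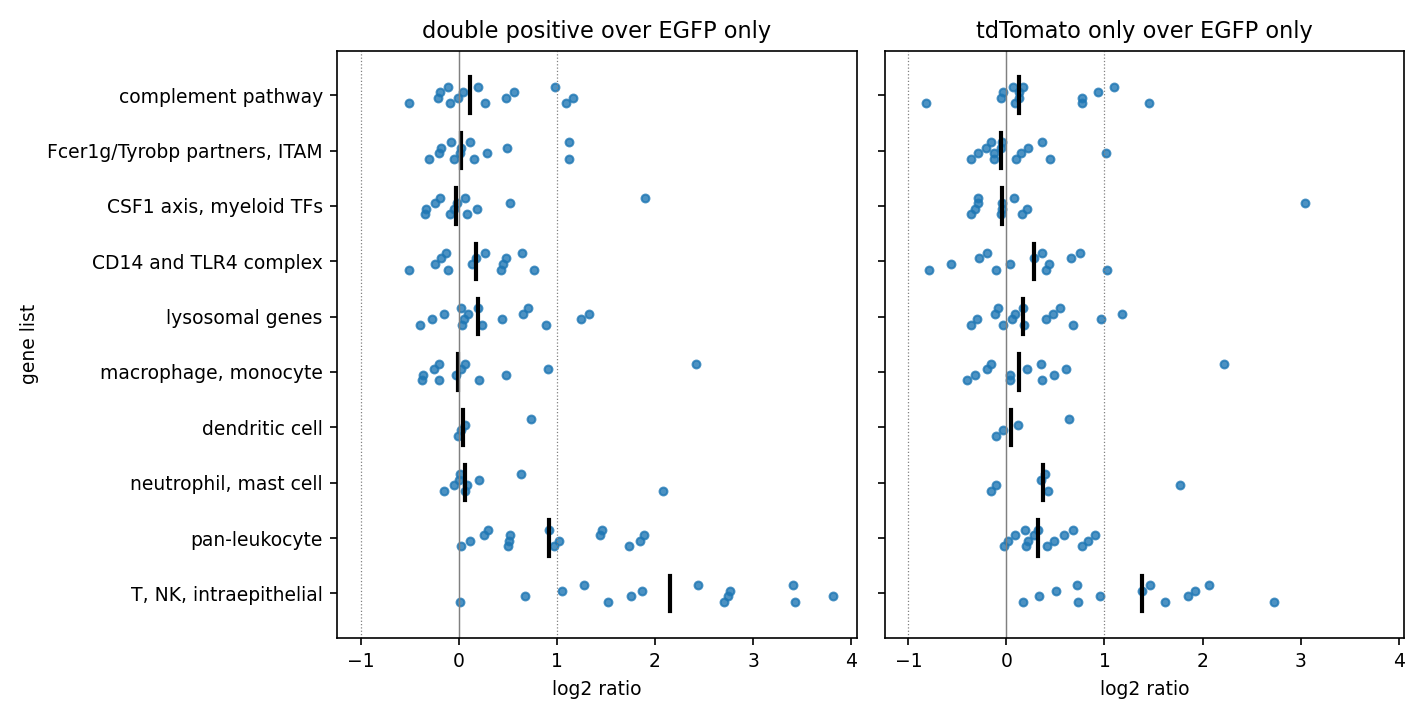
Log2 ratio over EGFP only of the genes of 10 lists (blue points, 1 per gene above background in both channels), with black bars at list medians and dotted lines at 2-fold. The bars of the lymphocyte (2.15 and 1.38) and pan-leukocyte (0.91 and 0.32) lists lie to the right, and those of the macrophage list (-0.01 and 0.13) near 0.

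Of 27 genes for partners and signalling molecules of the adaptors, 13 were measured in double-positive and 14 in tdTomato-only cells, with medians of 0.02 and -0.05. The rest had no ratio. At least 2-fold higher were 2 of the 13 and 1 of the 14, against 5.10% and 6.15% of all genes. The deposited ratios had 6 of 16 and 4 of 17 past 2-fold higher, against 12.2% and 12.8% of all genes, and list medians of 0.26 and 0.32. Past 2-fold were the T cell kinase gene Zap70 (1.12 in double-positive, 0.45 in tdTomato-only cells) and Cd247 (1.12 and 1.01), which encodes the zeta chain of the T cell receptor. Hcst, the gene of the adaptor DAP10, stood at 0.49 and 0.09, and Blnk, a B cell linker gene, at 0.02 and -0.36.

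Among the Fc receptor genes that pair with Fcer1g, Fcgr3 was above background in the Cy3 channels alone, at least 1.23-fold and 1.14-fold higher. Fcer1a, the IgE-binding chain gene, was likewise, at least 1.16-fold and 1.11-fold higher. The deposited ratios of Fcgr3 were 2.17 and 1.85, past 2-fold on both arrays, and Fcer1a had none. Of the 27 genes, 9 were not above background in any channel, named for that reason. They were Fcgr1, Fcgr4, Ms4a2, Clec5a, Clec4e, Sirpb1a, Klrk1, Ncr1 and Cd300lb. Lat2, an adaptor of mast and B cells, was at least 1.36-fold higher in double-positive cells and had a log2 ratio of 0.22 in tdTomato-only cells.

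Of 23 other complement genes with a probe, 2 of 14 with a ratio were past 2-fold higher in double-positive cells, against 5.10% of all genes. In tdTomato-only cells it was 2 of 13, against 6.15%. The list medians were 0.12 and 0.13. By the deposited ratios it was 5 of 15 and 6 of 15, against 12.2% and 12.8% of all genes, with list medians of 0.61 and 0.86. The factor B gene Cfb stood at 1.16 and 1.10, the factor I gene Cfi at 0.98 and 1.46, the gene of the central component C3 at 1.09 and 0.78, and Cd55, which encodes a complement inhibitor of the cell surface, at 0.48 and 0.94. The C1s gene C1s1, a protease partner of C1q, passed its limit in the double-positive channel alone (82.48). Intestinal epithelium is itself known to express C3, factor B and CD55.

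Integrin partners of the CD11b family and the anaphylatoxin receptor were dim. Itgax, which encodes CD11c, was at least 1.60-fold higher in double-positive and 1.09-fold higher in tdTomato-only cells. C5ar1 was at least 1.24-fold and 1.03-fold higher. Itgb2, the gene of the beta chain that pairs with CD11b, had a log2 ratio of 0.56 in double-positive cells and was at least 1.14-fold higher in tdTomato-only cells. Its deposited ratios were 2.57 and 1.57, past 2-fold on both arrays. Itgax and C5ar1 had no deposited ratio.

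Around Csf1r, 1 of 12 measured genes was past 2-fold in double-positive cells and 1 of 11 in tdTomato-only cells, Klf4 in both (1.90 and 3.05). Of all genes, 5.10% and 6.15% were at least 2-fold higher. Klf4 is a transcription factor gene of goblet cells and other differentiated epithelium as well as of monocytes. The ligand gene Csf1 stood at -0.34 and -0.29, Irf8 at 0.52 and 0.16, Csf2ra at -0.25 and -0.36, and Cebpb at -0.20 and -0.32. Csf2 was above background in double-positive cells alone on the first array, at least 1.03-fold higher, and Irf5 in EGFP-only cells alone on the second, at least 1.13-fold. The list medians were -0.04 and -0.05.

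Around Cd14, none of 13 measured genes of the Toll-like receptor 4 complex was past 2-fold in double-positive cells and 1 in tdTomato-only cells. That gene was the adaptor Tirap (0.76 and 1.02). Of all genes, 5.10% and 6.15% were at least 2-fold higher. The list medians were 0.18 and 0.28. The deposited ratios put 4 of 14 and 6 of 15 at least 2-fold higher, against 12.2% and 12.8% of all genes. In tdTomato-only cells they put 2 at least 2-fold lower, against 6.92%. Another adaptor gene, Ticam1, stood at 0.65 and 0.66, the inhibitory kinase gene Irak3 at 0.43 and 0.75, and the cytokine gene Tnf at -0.51 and -0.79. Tlr4 itself was not above background in any channel, named for that reason. Cd180 was above background in the Cy3 channels alone, at least 1.14-fold and 1.19-fold higher, and Ly86 in double-positive cells alone on the first array, at least 1.09-fold higher.

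Lysosomal genes, read beside Cd68, were all measured. Of 15, 2 were at least 2-fold higher in double-positive cells and 1 in tdTomato-only cells, against 5.10% and 6.15% of all genes. The list medians were 0.20 and 0.17. The cathepsin gene Ctsl stood at 1.33 and 0.96, the tetraspanin gene Cd63 at 1.25 and 1.18, Lamp1 at 0.88 and 0.55, and the cathepsin gene Ctsd at 0.70 and 0.68. With median centring the lysosomal medians were -0.19 and -0.17, the other side of 0.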

How the data were processed

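Each array had 27456 spots, with 2736 blanks among 3982 controls. Per the file headers, the authors deposited red and green spot medians (intensity values) combined from scans at 3 gains. The log2 ratios the authors deposited are normalized and run from the Cy3 population to EGFP only, per the labels. Their making was worked out from the values. Subtracting the trimmed blank mean (5% off each end) and centring the log2 ratio on its median returned 99.99% of the deposited values within 0.02.

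Intensities were corrected with normexp (offset 50, no local background) and normalized by loess within arrays, giving no weight to controls or to spots with a quality mark (limma 3.58.1, R 4.3.3). The steps were run on simulated data with changes planted only in probes well above the blank level. That run does not cover genes with a dimmer EGFP-only signal on the first array. These are C1qa, C1qb, C1qc, Fcer1g, Tyrobp, Csf1r and Itgam. Spots of the 9 genes carried no quality mark and none was saturated. Symbols were updated through RefSeq GRCm38.p6 (12622 current, 3947 updated, 59 ambiguous, 3 unmatched), and probes of a gene were averaged. The number of arrays limits the precision. No test was made, and 7 alternatives were run. Shifting values by 2 SD of the blanks was added after the data were seen.

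The genes and the 14 lists were chosen with earlier results of these data known. The naming rule took all 9 genes and, per list and comparison, up to 3 genes with the largest absolute log2 ratio and up to 2 above background in 1 population alone. Lists on dendritic cells, neutrophils and mast cells, MHC class II, B cells, and fibroblasts, muscle and endothelium are in the closing section.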

Additional observations from a re-analysis of the deposited data

How the results depend on the processing

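Of the 7 alternatives, 5 can change a ratio. They gave 100 values for the 6 genes measured in all comparisons and for C1qc and Itgam in double-positive cells. None changed sign, and 72 moved by more than the technical SD of 0.083. C1qa had no ratio to compare. The count of genes at least 2-fold higher, 3 in double-positive cells, was 5 in the authors' deposited ratios. In tdTomato-only cells it was 1, but 4 by the deposited ratios, 3 after subtraction of the blank mean and 2 with an offset of 10. At least 2-fold lower in tdTomato-only than in double-positive cells was 1 gene, but 2 by the deposited ratios and 2 after subtraction of the blank mean. The median log2 ratio in double-positive cells, 0.04, was 1.62 in the deposited ratios, 0.48 with the blank mean subtracted, 0.14 with an offset of 10, 0.18 with no limit and -0.11 at a limit of 3 SD, which leaves out C1qc. In tdTomato-only cells the median of 0.24 was 0.52 in the deposited ratios, 0.53 with the blank mean subtracted, 0.41 with an offset of 10 and 0.07 with median centring. In the third comparison the median of -0.30 was -0.46 in the deposited ratios and -0.11 with no limit. Median centring moved the median of all genes to -0.21 in both comparisons with EGFP only. Signal over background limits C1qa, C1qc and Itgam. No paired analysis was possible because each population has 1 replicate.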

Other observations

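Other cell type lists were read in the same way. Of the MHC class II list, 3 genes had a probe. Ciita, the class II transactivator gene, stood at 3.87 in double-positive and 3.32 in tdTomato-only cells, while H2-Aa (-0.33 and -0.69) and the invariant chain gene Cd74 (-0.21 and -0.63) lay below 0. Ciita drives the transcription of both, and all 3 are also expressed by intestinal epithelium. In the deposited ratios Ciita was at 4.04 and 3.44, H2-Aa at -0.75 and -1.14 and Cd74 at -0.66 and -1.11.

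Of 17 neutrophil and mast cell genes with a probe, 9 were measured in double-positive and 6 in tdTomato-only cells, with medians of 0.07 and 0.37. Kit, which some secretory cells of intestinal crypts also express, was the only one past 2-fold (2.08 and 1.77), against 5.10% and 6.15% of all genes. In the deposited ratios 3 of 10 and 5 of 10 were, against 12.2% and 12.8% of all genes, with list medians of 0.47 and 1.08. Retnlg stood at 0.64 and 0.35, Ly6g at 0.01 and 0.42, and Mcpt1, a mucosal mast cell protease gene, at 0.21 in double-positive cells and at least 1.35-fold higher in tdTomato-only cells. Of 10 dendritic cell genes 4 were measured, with Cd83 at 0.74 and 0.64, Zbtb46 at 0.06 and 0.12, Batf3 at -0.01 and -0.10, and Sirpa at 0.02 and -0.03. B cell and plasma cell genes had medians of 0.21 and 0.08 over 5 and 4 genes, with Cd79b at 0.38 and 0.24. Genes of fibroblasts, muscle and endothelium had medians of 0.12 and 0.15 over 6 and 5 genes, with Kdr at 0.43 and 0.44, and Sparc and Dcn were at least 1.33-fold and 1.21-fold, and at least 1.21-fold and 1.15-fold higher.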
